A study of Mus musculus with 8 samples.

Results

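Collagen chain genes encode the subunits of the collagens, the proteins that give connective tissue its strength, and fibroblasts are their main source in the colon wall. Each collagen molecule is a triple helix of 3 chains, which may be identical or come from different genes. Fibrillar collagens pack into fibrils, FACIT chains (fibril-associated collagens with interrupted helices) sit on the surface of these fibrils, type IV chains form the sheet of the basement membrane, and type VI chains form beaded filaments around cells. Type VIII and X chains form hexagonal networks, multiplexins lie near basement membranes, type VII anchors epithelia and a few chains span the cell membrane. The genes were taken as every protein-coding symbol of the form Col, number, a, number in the GENCODE M21 annotation. The rule found 44 of 45321 genes, and 31 of the 44 passed the expression filter that left 12963 genes for testing.

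The data are 8 libraries of polyadenylated RNA from adherent fibroblast cultures that grew out of normal mouse colon. A set of 4 libraries came from cultures with the genotype Zeb1 flox/flox (Fib-Ctrl), in which loxP sites flank an intact Zeb1 gene, and 4 from cultures with the genotype Zeb1 del/del (Fib-dZeb1), in which Cre recombinase had removed the flanked part; the labels give the treatment as none for all 8. Zeb1 encodes a zinc-finger transcription factor of epithelial to mesenchymal transition, and the comparison asks how fibroblasts without it differ. Each genotype was represented by 2 lines with 2 replicates each. Same-numbered lines of both genotypes are not described as coming from the same animal. Cre was induced in culture, and how the Fib-Ctrl cultures were handled at that step is not given, so deletion and Cre treatment cannot be told apart. In the study's mice Cre was driven by Col6a1 regulatory sequence or by a Cre allele at the Col1a2 locus, both among the genes described here, and which of them, if any, the sequenced cultures carried is not given. Age and strain are not in the labels.

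The libraries held 18852422 to 25540529 reads. Zeb1 lay between 92.1 and 98.5 CPM (counts scaled to a common library size and composition) in Fib-Ctrl and between 11.4 and 18.3 CPM in Fib-dZeb1 (adjusted p = 4.8e-05 by edgeR), as the labels state. All 10 fibroblast markers were expressed, with a summed level of 17750 to 27392 CPM in Fib-Ctrl and 10589 to 15110 CPM in Fib-dZeb1. By edgeR 3 of the 10 were called lower (Pdgfrb, Fn1 and Fbn1), and the others did not pass. Fn1 alone made up most of the sum, at 10640 to 21201 CPM in Fib-Ctrl and 5582 to 9790 CPM in Fib-dZeb1. The sum of 10 epithelial markers was 2.39 to 5.25 CPM in Fib-Ctrl and 20.1 to 131 CPM in Fib-dZeb1. Of the 10, 2 were called higher (Epcam and Krt18) and 6 were below 1 CPM in every library. Krt18 made up most of the sum in Fib-dZeb1 line 1, at 42.2 and 120 CPM. Of 10 smooth muscle and pericyte markers 3 were called lower, and their sum was 1717 to 3442 CPM against 540 to 776 CPM. The part of these shifts in the collagen values was not tested. Fib-dZeb1 line 1 had 5256 and 2704 reads of Xist, which is expressed from an inactivated X, and the other 3 lines had none, so sex and genotype cannot be told apart in line 1. In bulk RNA, fewer cells of a type and less RNA per cell cannot be told apart.

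Collagen chain genes were lower in Fib-dZeb1 more often than higher. By edgeR 9 of the 31 tested genes were lower (adjusted p under 0.05), against 8.65% of all genes tested, and 2 were higher, against 7.54%. The remaining 20 did not pass. The genes called higher, Col4a3 and Col4a4, passed the expression filter only through their Fib-dZeb1 libraries, so the count of higher genes depends on the filter. The median log2 fold change (Fib-dZeb1 minus Fib-Ctrl) of the 31 genes was -0.71, whereas that of all genes was -0.005, and 24 of 31 values were negative. Fib-dZeb1 lay below Fib-Ctrl with no overlap of libraries for 9 genes, where 12.3% of all genes did so, and above it for 3, where 12.0% did so. Scaling by library size alone shifted all genes by 0.178 and gave a collagen median of -0.53.

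**Figure D1:**
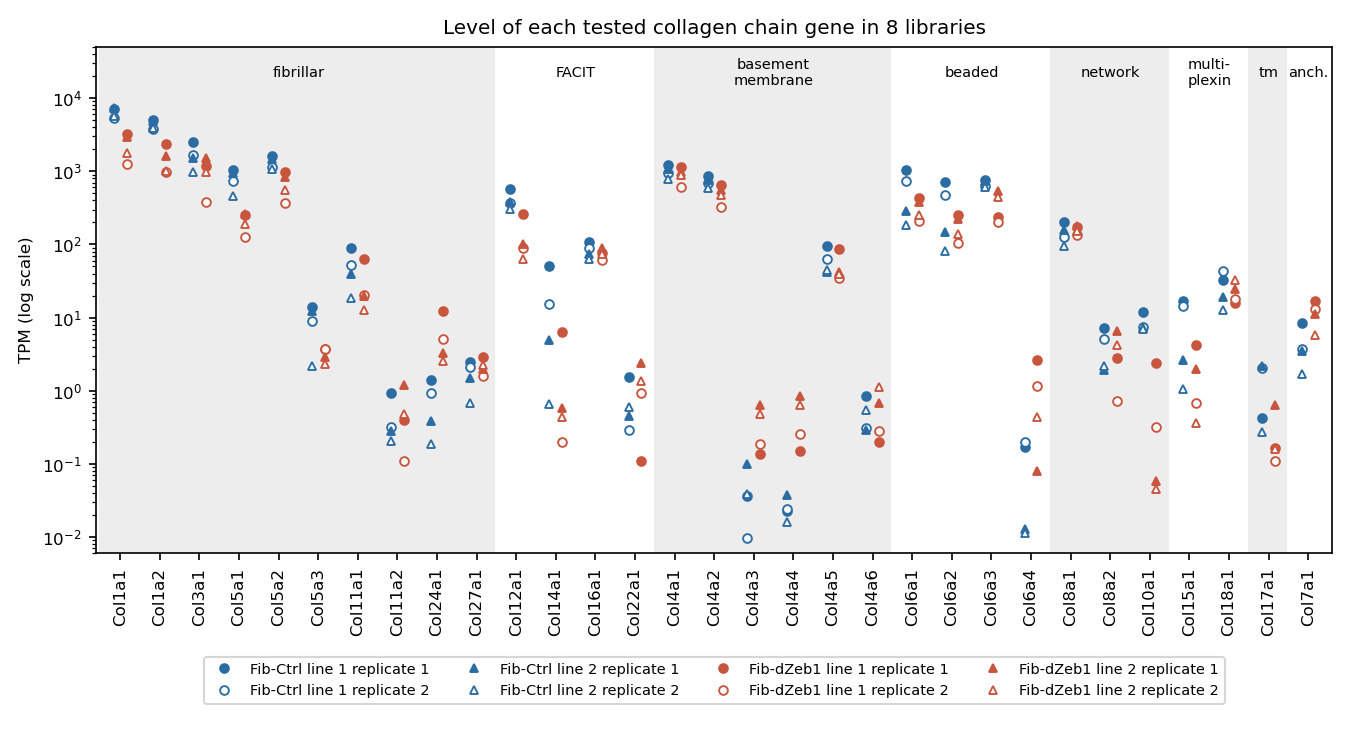
TPM (read density per length, log axis) of the 31 tested collagen chain genes in each of the 8 libraries, ordered by class; blue marks Fib-Ctrl and red Fib-dZeb1, lines 1 and 2 are drawn as circles and triangles, and symbols are filled for replicate 1 and open for replicate 2 (tm, transmembrane; anch., anchoring fibril). Col1a1, the most abundant, runs from 5390 to 7362 TPM in Fib-Ctrl and from 1272 to 3234 TPM in Fib-dZeb1, and Col4a3 and Col4a4 stay below 1 TPM in every library.

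The pool of collagen messages was smaller in Fib-dZeb1. Reads of the 44 genes made up 7.55, 5.87, 6.67 and 5.20% of all reads in Fib-Ctrl (line 1 replicates 1 and 2, then line 2 replicates 1 and 2, the order used throughout) and 3.77, 1.73, 3.44 and 2.47% in Fib-dZeb1. Per length, the summed level was 18783 ± 3612 TPM in Fib-Ctrl and 8441 ± 2971 TPM in Fib-dZeb1 (SD, n = 4 each), a ratio of 0.449 with no overlap. Without Col1a1, Col1a2 and Col3a1, which held the first 3 ranks in both genotypes, the ratio was 0.580 and the genotypes overlapped. The sums are descriptions with no test.

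The make-up of that pool differed as well. Fibrillar chains supplied 75.2 to 81.5% of the summed collagen TPM of a Fib-Ctrl library, against 63.6 to 70.6% for Fib-dZeb1. Basement membrane chains supplied 9.34 to 10.1% and 15.2 to 19.8%, and hexagonal network chains, nearly all Col8a1, 0.704 to 0.955% and 1.54 to 2.75%. None of the 3 shares overlapped between genotypes, and a larger share of a smaller pool is not a higher level. Col5a1 went from rank 6 to rank 9 among the chains by mean TPM.

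**Figure D2:**
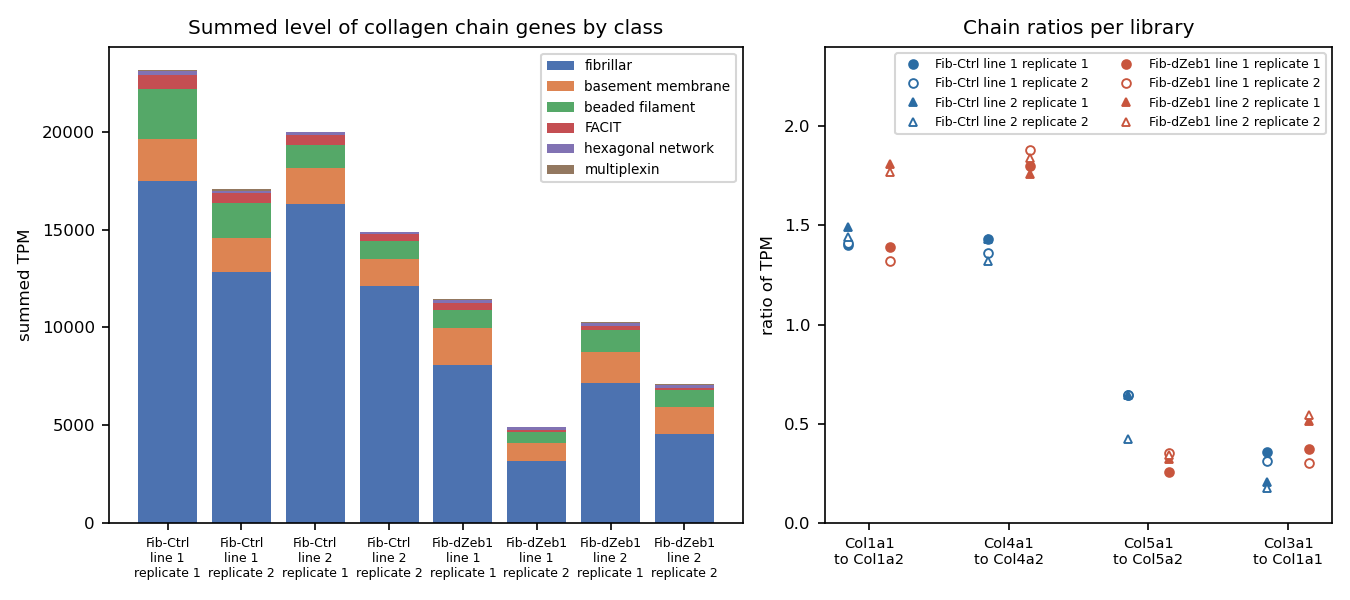
Left, summed TPM (linear from 0) of the collagen chain genes in each library, stacked by the 6 classes with the highest sums; right, ratio of TPM of 2 chains in each library, with colours and symbols for genotype, line and replicate. The sums run from 14879 to 23189 TPM in Fib-Ctrl and from 4936 to 11455 TPM in Fib-dZeb1, and the ratios of Col4a1 to Col4a2 and of Col5a1 to Col5a2 do not overlap between genotypes.

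Type I collagen, the bulk fibril former of connective tissue, was lower in both of its chains. Col1a1 (chromosome 11, positions 94936224 to 94953042 of GRCm38) was at 24408, 19536, 26405 and 20691 CPM in Fib-Ctrl and at 10113, 4189, 9117 and 5679 CPM in Fib-dZeb1. This was 3.13-fold lower (log2 change -1.65 ± 0.28 SE, adjusted p = 0.00761). Every Fib-dZeb1 library lay below every Fib-Ctrl library. Col1a2 (chromosome 6, positions 4504814 to 4541544) went from 15635, 12375, 15851 and 12797 CPM to 6528, 2856, 4508 and 2875 CPM (log2 change -1.76 ± 0.28 SE, adjusted p = 0.00633). The ratio of Col1a1 to Col1a2, chains that join at 2 to 1 in the usual type I molecule, was 1.40 to 1.49 in TPM in Fib-Ctrl. In Fib-dZeb1 it was 1.39 and 1.32 in line 1 and 1.81 and 1.77 in line 2, so the genotypes overlapped.

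Type III collagen, which forms fine fibrils together with type I, did not pass. Col3a1 was at 7714, 5151, 4876 and 3194 CPM in Fib-Ctrl and at 3291, 1093, 4154 and 2817 CPM in Fib-dZeb1 (log2 change -0.88 ± 0.40 SE, adjusted p = 0.162). In both Fib-dZeb1 lines replicate 1 lay within the Fib-Ctrl range (3291 and 4154 CPM) and replicate 2 below it (1093 and 2817 CPM). The ratio of Col3a1 to Col1a1 was 0.175 to 0.355 in Fib-Ctrl, 0.370 and 0.301 in Fib-dZeb1 line 1, and 0.513 and 0.542 in Fib-dZeb1 line 2.

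Type V collagen, which starts fibrils and limits their width, was lower in all 3 of its chains. Col5a1 had the lowest called value of the fibrillar class (log2 change -2.10 ± 0.29 SE, adjusted p = 0.0044), at 2396 to 5210 CPM in Fib-Ctrl and 608 to 1189 CPM in Fib-dZeb1. Col5a2 went from 6273, 4655, 5933 and 4410 CPM to 3466, 1351, 2886 and 2001 CPM (log2 change -1.13 ± 0.28 SE, adjusted p = 0.0292). Col5a3, a minor chain, went from 49.0, 33.6, 45.9 and 8.16 CPM to 11.9, 12.8, 9.48 and 7.56 CPM (log2 change -1.71 ± 0.48 SE, adjusted p = 0.043). Its genotypes overlapped because Fib-Ctrl line 2 replicate 2 lay as low as the Fib-dZeb1 libraries. Without that library its adjusted p was 0.00358, and without any 1 of the others it lay between 0.0684 and 0.114. The ratio of Col5a1 to Col5a2 in TPM was 0.645, 0.646, 0.645 and 0.424 in Fib-Ctrl and 0.254, 0.351, 0.320 and 0.344 in Fib-dZeb1, with no overlap. Every Fib-dZeb1 library thus held less Col5a1 message per Col5a2 message than every Fib-Ctrl library.

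Other fibrillar chains varied in both directions and did not pass the genotype contrast. Col11a1, a minor fibril chain, had a log2 fold change of -0.94 (adjusted p = 0.289) and Col11a2 of -0.36 (0.707). Col24a1, a fibrillar chain of low level, was at 5.91, 4.12, 1.69 and 0.826 CPM in Fib-Ctrl and at 27.4, 12.2, 8.52 and 6.68 CPM in Fib-dZeb1. All Fib-dZeb1 libraries lay above all Fib-Ctrl libraries (log2 change 2.12 ± 0.66 SE, adjusted p = 0.059). Col24a1 did pass with DESeq2 (adjusted p = 0.00309), with library size alone (0.0375), with an offset for effective length (0.031) and with limma on TPM (0.0155). It did not pass with 2 lines against 2 lines (0.364), limma-voom with a correlation within lines (0.229) or either replicate number alone (0.438 and 0.351). Without both Fib-dZeb1 line 1 libraries it was at 1.27 (0.259), and no fit that left out 1 library passed (0.053 to 0.13). It was called higher within each line number, by 1.98 in line 1 (adjusted p = 0.0174) and 2.60 in line 2 (0.00919). Col27a1 differed by 0.22 (0.763).

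**Figure D3:**
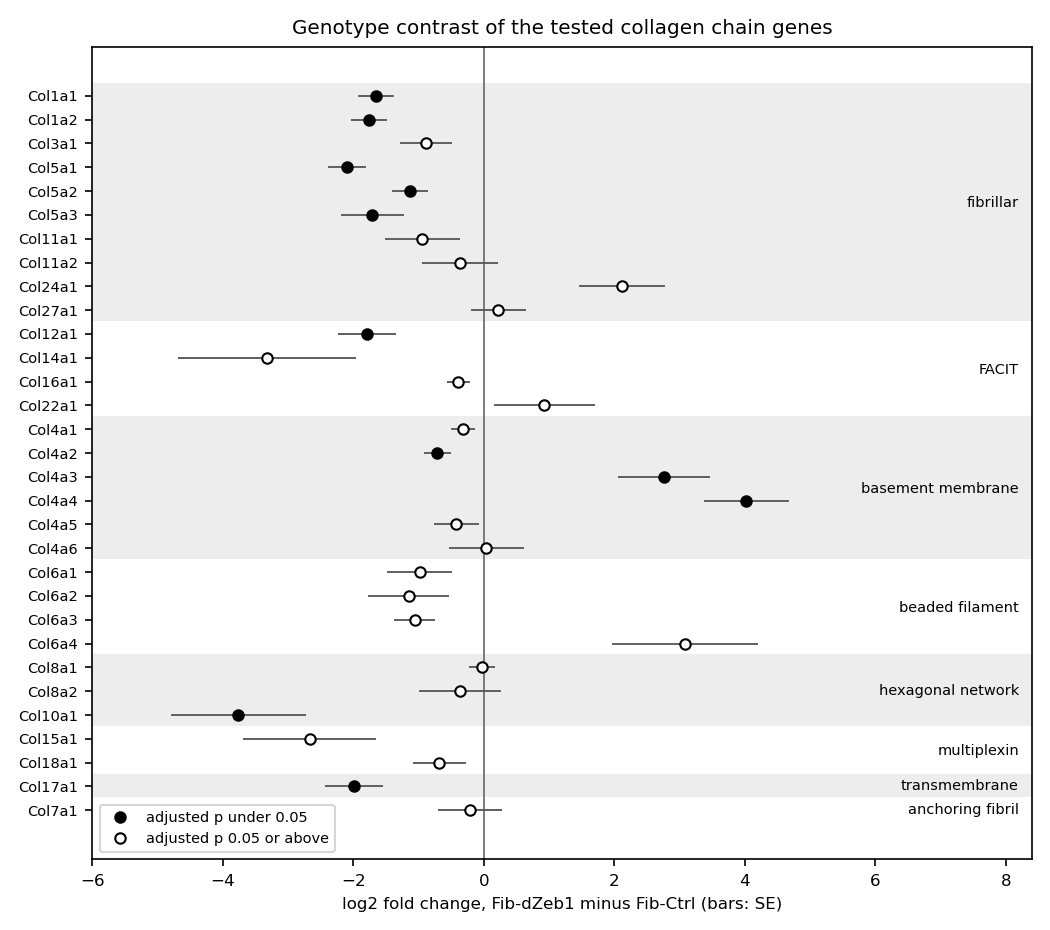
Log2 fold change, Fib-dZeb1 minus Fib-Ctrl, of the 31 tested collagen chain genes (points) with its standard error (bars), grouped by class; filled points have an adjusted p under 0.05 by edgeR. Of the filled points 9 lie below 0 and 2, Col4a3 and Col4a4, above it.

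Among the 4 tested FACIT genes 1 was called. Col12a1, which decorates type I fibrils, was at 3130, 2054, 2245 and 1823 CPM in Fib-Ctrl and at 1389, 477, 513 and 304 CPM in Fib-dZeb1 (log2 change -1.79 ± 0.45 SE, adjusted p = 0.0299). Col14a1, another fibril-surface chain, ran from 2.63 to 156 CPM within Fib-Ctrl alone, and its log2 fold change of -3.32 had an SE of 1.36 (adjusted p = 0.128). The value rested on single libraries. Col14a1 was at -5.50 (adjusted p = 0.0354) without Fib-dZeb1 line 1 replicate 1, which had 19.1 CPM, and at -2.07 (0.318) without Fib-Ctrl line 1 replicate 1. Col16a1 differed by -0.39 (0.165) and Col22a1 by 0.93 (0.442).

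The basement membrane class held both genes that were higher and 1 that was lower. Col4a1 and Col4a2 encode the common type IV network, in which both chains join at 2 to 1. Col4a1 was at 4691, 3886, 4319 and 3172 CPM in Fib-Ctrl and at 4066, 2245, 3384 and 3162 CPM in Fib-dZeb1 (log2 change -0.32 ± 0.19 SE, adjusted p = 0.287). Col4a2 went from 3215, 2780, 2959 and 2347 CPM to 2196, 1160, 1878 and 1682 CPM (log2 change -0.71 ± 0.20 SE, adjusted p = 0.0415), with no overlap. The ratio of Col4a1 to Col4a2 in TPM was 1.43, 1.36, 1.43 and 1.32 in Fib-Ctrl and 1.80, 1.88, 1.76 and 1.84 in Fib-dZeb1. The replicates of a genotype differed by far less than the genotypes in this ratio, although the genes lie head to head on chromosome 8 and their annotated first exons overlap by 22 bases. Reads of that overlap cannot be assigned to a gene without strand, and the strand setting is not given in the sources used here.

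Col4a3 and Col4a4, known from the basement membranes of kidney and lung, lie head to head on chromosome 1 and were both higher, at low levels. Col4a3 (positions 82586921 to 82722059) had 4, 1, 9 and 4 reads in Fib-Ctrl and 13, 22, 64 and 57 reads in Fib-dZeb1 (log2 change 2.76 ± 0.71 SE, adjusted p = 0.0339). Col4a4 (positions 82448423 to 82586849) had 3, 3, 4 and 2 reads in Fib-Ctrl and 17, 35, 102 and 96 reads in Fib-dZeb1 (log2 change 4.02 ± 0.65 SE, adjusted p = 0.00685). With so few reads in Fib-Ctrl, both passed the expression filter only through Fib-dZeb1, where they were high. Both genes had more reads in line 2 than in line 1 of Fib-dZeb1. Their highest level was 0.854 TPM, for Col4a4, against 1157 TPM for Col4a1 in the same genotype. Their partner chain Col4a5, on chromosome X, differed by -0.42 (0.424), and Col4a6, beside it, by 0.04 (0.97).

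The stretch between the annotated starts of Col4a4 and Col4a3 is shown because the only chain genes called higher share it. It is 71 bases long (chr1:82586850-82586920, minus strand, GRCm38.p6, RefSeq), is 69.0% G or C and reads in the direction of Col4a4:
Col4a4 to Col4a3 interval: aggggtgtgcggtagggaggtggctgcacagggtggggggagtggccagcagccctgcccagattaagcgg

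ZEB1 is known to bind E-boxes. One form searched has the letters CAGGTG, which read as CACCTG on the other strand. The other form searched has the letters CAGGTA, which read as TACCTG. That stretch holds neither. RefSeq promoter windows of 300 bases, from 250 before to 50 after a start, were at hand for 35 of the 44 genes in 38 windows, and 4 called genes (Col1a1, Col5a2, Col12a1 and Col4a3) had none. The forms of the latter E-box can share letters, and each window was counted once. At least 1 of the motifs lay in 6 of 38 collagen windows (15.8%), against 29.5% of 32851 windows of all genes. The 6 genes were Col4a4, which was higher, Col17a1, which was lower, Col8a1 and Col16a1, which did not pass, and Col9a2 and Col6a5, which were not tested. Of 6 windows of genes called lower, 1 held a motif. A match is not a site of binding, and binding was not measured in these libraries.

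Windows of a higher, an uncalled and a lower gene with a match are shown, together with those of Col5a1 and Col10a1, called lower with no match. Capitals mark the E-box letters, or the letters TATAAA in Col10a1. The letters TATAAA also occur in the Col17a1 stretch, where they are left in small letters. Every stretch but the first ends at the base before the start in GENCODE, from which matches are counted. The windows lie at chr1:82587001-82587030 (Col4a4, match at -169), chr16:57754738-57754837 (Col8a1, match at -18), chr19:47692095-47692292 (Col17a1, match at -73, or at -125 from the start in RefSeq), chr2:27886225-27886424 (Col5a1) and chr10:34389781-34389980 (Col10a1), with Col5a1 and Col10a1 on the plus strand and the others on the minus strand. That of Col5a1 is 75.5% G or C and that of Col10a1 44.0%. The Col4a4 stretch with its match also lies within Col4a3, past the annotated start of Col4a3 at 82586921.
Col4a4: ccgcagagcaggCAGGTGggcgcagctcca
Col8a1: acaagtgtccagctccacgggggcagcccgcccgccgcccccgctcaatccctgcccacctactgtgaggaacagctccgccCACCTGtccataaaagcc
Col17a1: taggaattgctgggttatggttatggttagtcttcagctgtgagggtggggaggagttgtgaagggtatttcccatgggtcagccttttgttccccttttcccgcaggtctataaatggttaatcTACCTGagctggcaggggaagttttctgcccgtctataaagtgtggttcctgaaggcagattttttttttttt
Col5a1: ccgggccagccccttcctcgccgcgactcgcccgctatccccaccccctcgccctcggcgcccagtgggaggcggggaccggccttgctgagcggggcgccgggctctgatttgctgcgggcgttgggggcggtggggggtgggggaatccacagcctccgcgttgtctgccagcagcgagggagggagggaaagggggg
Col10a1: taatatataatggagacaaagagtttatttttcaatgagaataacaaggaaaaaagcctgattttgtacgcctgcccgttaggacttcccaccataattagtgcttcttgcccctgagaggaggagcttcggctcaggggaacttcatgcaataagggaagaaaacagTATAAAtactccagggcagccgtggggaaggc

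Of the hexagonal network genes Col10a1, a chain best known from growing cartilage, was called lower. It was at 21.1, 13.7, 13.0 and 12.9 CPM in Fib-Ctrl and had 80, 13, 2 and 2 reads in Fib-dZeb1 (log2 change -3.76 ± 1.04 SE, adjusted p = 0.0414). Without Fib-dZeb1 line 1 replicate 1, the library with 80 reads, Col10a1 was at -5.98 (adjusted p = 0.00363), and without any 1 of the other 7 libraries the call was lost (0.0648 to 0.101). The Fib-dZeb1 lines differed from each other by -4.63 on the log2 scale (line 2 minus line 1, SE 1.08, adjusted p = 0.0469). A sum of 8 cartilage markers was 10.1 to 30.3 CPM in Fib-Ctrl and 3.37 to 17.6 CPM in Fib-dZeb1. Sox9 alone made up most of this sum in every library, and 6 of the 8 were below 1 CPM in every library. Only 2 of the 8 were tested, and neither was called by edgeR. Col8a1, the main network chain here, was at 597, 394, 480 and 301 CPM in Fib-Ctrl and at 460, 383, 471 and 424 CPM in Fib-dZeb1 (log2 change -0.03 ± 0.20 SE, adjusted p = 0.939), with its sign depending on the scaling. Its partner Col8a2 differed by -0.37 (0.721).

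Of the transmembrane genes Col17a1, a chain of epithelial hemidesmosomes, passed the filter and was lower at a low level, with 30, 64, 27 and 18 reads in Fib-Ctrl and 10, 8, 11 and 13 reads in Fib-dZeb1 (log2 change -1.99 ± 0.45 SE, adjusted p = 0.021). Its CPM did not overlap between genotypes, whereas its TPM did (0.269 to 2.18 against 0.110 to 0.645). Of the multiplexins Col15a1 had a log2 fold change of -2.67 (SE 1.02, adjusted p = 0.107) and Col18a1 of -0.68 (SE 0.41, adjusted p = 0.29), and neither passed. Col15a1 was at -3.92 (adjusted p = 0.0394) without Fib-dZeb1 line 1 replicate 1, which had 11.6 CPM, and between -3.05 and -2.19 (0.0683 to 0.218) without any 1 of the others.

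Col7a1, the anchoring fibril chain, gave different answers in CPM and in TPM. In CPM it differed by -0.21 (SE 0.49, adjusted p = 0.803). Its TPM was 8.53, 3.68, 3.46 and 1.70 in Fib-Ctrl and 17.1, 13.2, 11.2 and 5.70 in Fib-dZeb1. The transcripts parted: a retained-intron transcript of 515 bases had 7, 0, 0 and 0 reads in Fib-Ctrl and 30, 30, 29 and 15 reads in Fib-dZeb1, and a short transcript counts heavily in TPM. The full-length transcripts had 709, 390, 297 and 151 reads in Fib-Ctrl and 600, 402, 177 and 244 reads in Fib-dZeb1. With an offset for effective length the log2 fold change was 1.30 (adjusted p = 0.103).

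The type VI genes separated the lines. Col6a3 was at 3404, 2895, 3326 and 2811 CPM in Fib-Ctrl and at 1013, 791, 2243 and 1913 CPM in Fib-dZeb1. Its genotypes did not overlap, and the contrast missed the threshold (log2 change -1.06 ± 0.31 SE, adjusted p = 0.0511). Col6a3 passed without Fib-dZeb1 line 2 replicate 1 (adjusted p = 0.0336), with DESeq2 (0.00597), with an offset for effective length (0.0368) and with limma on TPM (0.036). It did not pass with 2 lines against 2 lines (0.355) or with limma-voom with a correlation within lines (0.109). Within line 1 it differed by -1.80 (SE 0.18, adjusted p = 0.00115) and within line 2 by -0.56 (SE 0.18, adjusted p = 0.0493). Col6a1 was at 2447 and 1800 CPM in Fib-Ctrl line 1 but at 702 and 451 CPM in Fib-Ctrl line 2, and the Fib-dZeb1 libraries, at 929, 468, 799 and 549 CPM, lay near the latter. Col6a2 followed the same order, at 1654, 1141, 354 and 201 CPM in Fib-Ctrl and 527, 228, 466 and 293 CPM in Fib-dZeb1. The genotype contrasts of Col6a1 (-0.98, adjusted p = 0.216) and Col6a2 (-1.15, 0.232) did not pass. Col6a4, at most 9.21 CPM, differed by 3.08 (0.0939), passed with DESeq2 (0.0129) and was called higher within line 1 (3.03, 0.017) and within line 2 (3.92, 0.0304). In Fib-Ctrl line 2 it had 1 read in each replicate.

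A fit with a mean for each of the 4 lines showed how far the lines differed. In line 1, 12 collagen chain genes were lower, against 13.8% of all genes, and 4 were higher, against 13.6%, with a collagen median of -1.45. In line 2, 6 were lower, against 14.6% of all genes, and 5 were higher, against 14.1%, with a median of -0.21. Values were negative for 27 of 31 genes in line 1 and 18 of 31 in line 2. The line 2 contrast lay above the line 1 contrast for 5 genes, against 7.74% of all genes, and below it for none at an adjusted p under 0.05 by edgeR, against 7.55%.

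These 5 genes were Col22a1, Col6a2, Col6a3, Col8a2 and Col18a1. Col22a1, a FACIT chain of muscle junctions, differed by -1.11 in line 1 (SE 0.51, adjusted p = 0.143) and by 3.19 in line 2 (SE 0.56, adjusted p = 0.00685), a difference of 4.30 (SE 0.76, adjusted p = 0.0117). Its level stayed at or below 4.28 CPM. Col8a2 differed by -1.97 in line 1 (adjusted p = 0.0313) and by 1.19 in line 2 (0.127), a difference of 3.16 (SE 0.75, adjusted p = 0.0307). Col18a1 differed by -1.75 (0.00446) and 0.46 (0.219), a difference of 2.21 (SE 0.37, adjusted p = 0.0103). The differences were 2.34 for Col6a2 (SE 0.63, adjusted p = 0.0469) and 1.24 for Col6a3 (SE 0.25, adjusted p = 0.0184). By contrast, Col1a1 differed by -1.62 and -1.67 in line 1 and line 2, and Col1a2 by -1.58 and -1.96.

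**Figure D4:**
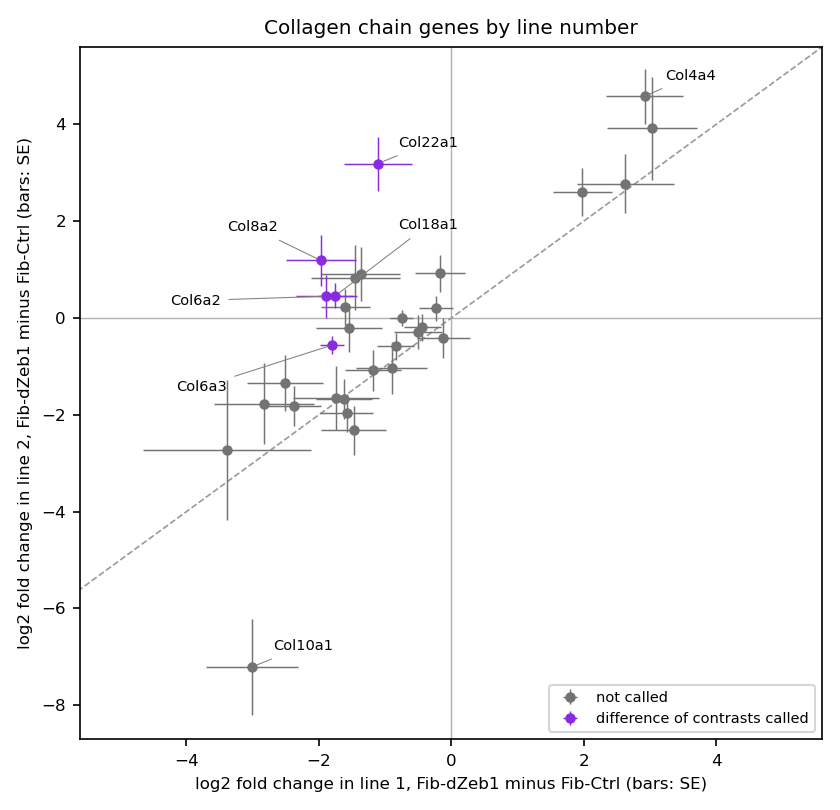
Log2 fold change, Fib-dZeb1 minus Fib-Ctrl, in line 2 (y axis) against line 1 (x axis) for the 31 tested collagen chain genes, with standard errors (bars) and the line of equality (dashed). The 5 genes whose contrasts differed (purple) lie above the dashed line, and Col10a1 at the bottom had 2 reads in each replicate of Fib-dZeb1 line 2.

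Control cultures differed among themselves in these genes. Between the Fib-Ctrl lines 7 collagen chain genes were lower in line 2 than in line 1, against 8.72% of all genes, and none was higher by edgeR, against 8.32%. They were Col6a2 (log2 difference -2.33), Col6a1 (-1.88), Col15a1 (-3.06), Col22a1 (-2.32), Col24a1 (-2.01), Col27a1 (-1.40) and Col18a1 (-1.18), with adjusted p from 0.0166 to 0.0497. Col6a2, Col6a1 and Col18a1 lie within 1 stretch of chromosome 10. Of other genes there, picked after their values were seen, Lss, beside Col6a2, was lower as well (-0.69, 0.00734), whereas Pcbp3 (-0.35, 0.11), Slc19a1 (0.45, 0.112) and Pofut2, beside Col18a1 (0.08, 0.679), did not pass. Between the Fib-dZeb1 lines 2 genes were lower in line 2 (Col6a4, -2.89, and Col10a1, -4.63), against 3.48% of all genes, and Col6a3 was higher, against 3.39%.

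Col18a1 also differed in its transcripts. One transcript, of 5063 bases, starts at the outer end of the gene, at position 77166548, and a pair of 6338 and 4791 bases start further in, at positions 77113946 and 77113705. The pair had 907, 1124, 78 and 143 reads in Fib-Ctrl and 88, 20, 211 and 196 reads in Fib-dZeb1, or 48.3, 49.1, 8.42 and 20.7% of the gene's reads in Fib-Ctrl and at most 18.6% in Fib-dZeb1. Both Fib-Ctrl line 1 libraries lay above the other 6 in these reads and in this share. The transcript with the outer start had 950, 1135, 842 and 544 reads in Fib-Ctrl and 440, 740, 893 and 1705 reads in Fib-dZeb1. The gene overlaps Slc19a1 at its end, so a few reads cannot be assigned with certainty.

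Replicate number moved with the collagen level in every line. Of the 31 genes 27 in Fib-Ctrl line 1, 28 in Fib-Ctrl line 2, 25 in Fib-dZeb1 line 1 and 26 in Fib-dZeb1 line 2 were lower in replicate 2 than in replicate 1. These are 87.1, 90.3, 80.6 and 83.9% of the 31, and over all genes no line exceeded 52.0%. In all 4 lines 19 of 31 genes (61.3%) were lower in replicate 2, against 15.7% of all genes. With a mean for each line and a term for the replicate number, chosen after this was seen, the median difference was -0.64 on the log2 scale for collagen chains and -0.014 for all genes. None of the 31 passed for that term by edgeR (lowest adjusted p = 0.0935; 3 of 12963 genes passed), and 19 had an unadjusted p under 0.05, as had 19.6% of all genes. What set the replicates apart is not given.

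Each genotype had both replicate numbers in each line, so the genotype contrast is balanced over them. With replicate 1 alone (2 against 2 libraries) edgeR called no collagen chain gene, 10 of the 31 had an unadjusted p under 0.05, as had 11.3% of all genes, and 5 genes passed in all. With replicate 2 alone it again called none, 13 of the 31 had an unadjusted p under 0.05, as had 16.1% of all genes, and 10 genes passed in all. All 11 called genes had the same sign in both. For all but Col5a3 the libraries did not overlap between genotypes, so the sign in a subset was settled in advance and is no support. With a mean for each line and the replicate term, 18 collagen chain genes were lower, against 22.5% of all genes, and 4 were higher, against 22.4%.

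**Figure D5:**
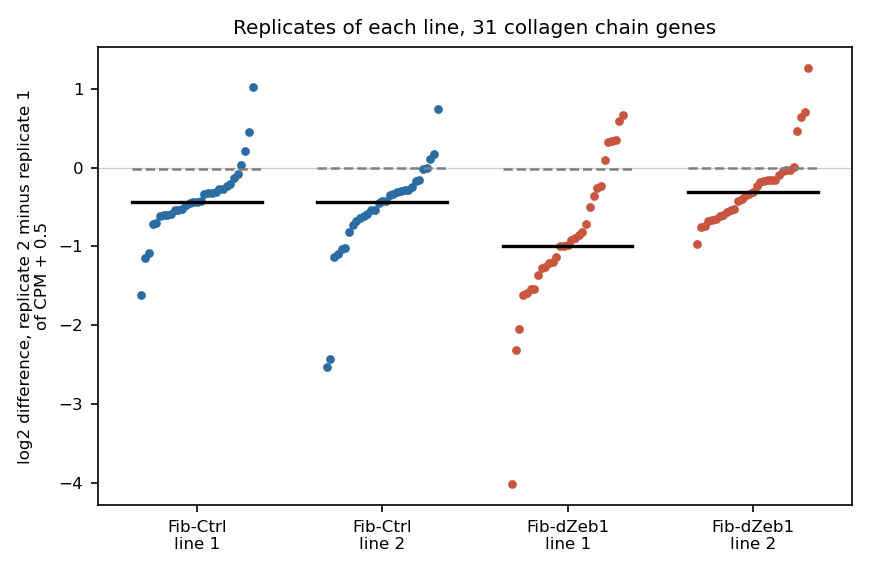
Log2 difference of CPM + 0.5, replicate 2 minus replicate 1, of the 31 tested collagen chain genes (points, sorted within a line) in each of the 4 lines, with the median of these genes (black bar) and of all genes (dashed grey bar). The black bars lie at -0.43, -0.43, -0.99 and -0.31, whereas the grey bars lie at about 0.

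Genes of the wider collagen pathway, from synthesis to receptors and degradation, leaned the same way. Their list was chosen with earlier results of these data known. Of 61 tested genes on a list of 66 collagen pathway genes, 25 were lower and 2 higher (the backgrounds of the genotype contrast apply, 8.65% and 7.54%), with a median of -0.51. In hydroxylation and glycosylation 7 of 13 were lower, among them the prolyl hydroxylase subunits P4ha1, at 433 to 527 against 286 to 320 CPM (log2 fold change -0.71, adjusted p = 0.0044), and P4ha3 (-1.12, 0.00677). In folding and export 4 of 9 were lower, among them Creb3l1, a transcription factor of secretory cargo genes (-1.56, 0.0112), and Serpinh1, the collagen chaperone HSP47 (-0.43, 0.0301). In cross-linking 3 of 5 were lower, among them Loxl1 (-0.82, 0.0051) and Lox (-1.56, 0.0111), which oxidise lysines.

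Of 7 genes of propeptide removal 2 were lower, Adamts2, a protease of the N-propeptide (-3.01, 0.00184), and Pcolce, an enhancer of C-propeptide removal (-0.59, 0.0348), and 1 was higher. The latter was Pcolce2, a relative of Pcolce with the same role, at 1.79, 1.18, 10.1 and 5.73 CPM in Fib-Ctrl and at 74.5, 104, 73.4 and 66.2 CPM in Fib-dZeb1 (log2 change 4.09 ± 0.62 SE, adjusted p = 0.0056). Pcolce and Pcolce2 thus went opposite ways, and Pcolce still had the higher CPM. Among fibril partners 5 of 10 were lower, among them Sparc, a collagen-binding matrix protein (-1.34, 0.00568), and Fmod, a proteoglycan of fibrils (-4.30, 0.00964). Of 8 receptors 1 was lower, Mrc2, which takes up collagen (-1.12, 0.00391). In degradation 3 of 9 were lower, among them the protease inhibitors Timp3 (-1.71, 0.00898) and Timp1 (-1.68, 0.0147). Mmp9, a gelatinase, was higher (3.23, 0.0234) with overlapping genotypes. Of the 8 edgeR fits that each leave out 1 library, the call held in 2 for Serpinh1 (highest adjusted p = 0.0816) and 2 for Pcolce (0.0957). It held in 4 for Mmp9 (0.0605), in 7 for Timp1 (0.0507) and in all 8 for the other pathway genes named.

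Of the 13 genes that did not pass the filter, Col13a1 had no reads in any library, and Col9a1, Col25a1 and Col26a1 had 1 read each over all 8. Col2a1, the main fibrillar chain of cartilage, had 21 reads over Fib-Ctrl and 54 over Fib-dZeb1. Col28a1 had 67 and 8 reads, Col9a2 35 and 10, Col23a1 22 and 3, and Col6a6 16 and 1. Col9a3, Col19a1, Col20a1 and Col6a5 had 4 to 11 reads in either genotype. At these depths a difference could not be read from single genes.

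No collagen chain call held for every choice. Calls of Col1a1, Col1a2, Col5a1 and Col4a4 remained whichever library was left out, and the other 7 were lost without at least 1. Of the 8 fits that each leave out 1 library, the call held in 5 for Col17a1 (highest adjusted p = 0.0619), 4 for Col5a2 (0.085), 2 for Col12a1 (0.0791), 2 for Col4a2 (0.104), 2 for Col4a3 (0.087), 1 for Col5a3 (0.114) and 1 for Col10a1 (0.101). Replicates of a line are not described as separate cultures, so p-values over the 8 libraries measure the spread between these libraries. Taking each line as 1 unit, with 2 units on each side, edgeR called none of the 31 genes and 15 of 12963 in all. At an unadjusted p under 0.05 there were 11 of the 31, against 14.5% of all genes.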

How the data were processed

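The authors used the nf-core RNA-seq pipeline 3.11.0, with STAR for alignment to GRCm38 and Salmon for quantification. Neither tool's version nor the strand setting was stated in the sources used here. In the deposited files 109617 transcripts have estimated counts with no normalization, which need not be whole because reads are shared between transcripts. Next to them the deposited files give TPM (reads per effective length, scaled to the same sum in each library) and the effective length. The authors compared genotypes with DESeq2, and that comparison was not used here.

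Both values were summed to genes with GENCODE M21, and the counts were rounded. Transcripts without a match took 0.262 to 0.303% of each library and were dropped. Replicates of each line were compared by a chi-square test of their counts, and in no line were they identical or within sampling noise. All 8 libraries entered, grouped by the labels, and 0 per-sample columns were left unused. The genotype contrast was fitted with edgeR 4.0.16 (R 4.3.3, quasi-likelihood) on all genes past its expression filter, with genotype as the only term, TMM scaling and Benjamini-Hochberg adjustment over the 12963 genes. A gene was called at an adjusted p under 0.05, and an adjusted p with no other name, or a second value in parentheses after a log2 fold change, comes from edgeR. Line contrasts came from a fit with a mean for each of the 4 lines. SE came from each coefficient and its F value. The genotype contrast was tested on simulated counts with no line or replicate effect, so that test cannot show how line differences affect the calls. Line contrasts were not simulated. Class sums, ratios, shares and transcript reads are descriptions without a test. Reads of overlapping genes are uncertain.

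Deviations of same-numbered libraries from their genotype means correlated at 0.20, -0.04, -0.04 and 0.07, so line and replicate numbers were not taken as pairs. The collagen genes, marker lists and pathway list were chosen with earlier results of these data known. All tested members are described; of each pathway role, up to 2 called genes in each direction with the smallest adjusted p are named. Alternatives changed the scaling, the filter, the tool (DESeq2 1.42.0, limma 3.58.1), the length offset, the blocks and the libraries. Promoter windows came from RefSeq (GRCm38.p6).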

Additional observations from a re-analysis of the deposited data

Results flagged for a closer look

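Within the 4 libraries of a genotype, 62 groups of CPM values were examined for a library far from the other 3 by Dixon's criterion, and 7 stood out, where chance flags about 1 in 20. In Fib-Ctrl, line 1 replicate 1 lay apart for Col11a2 (3.21 CPM, others 0.774 to 1.18) and Col10a1 (21.1 CPM, others 12.9 to 13.7). In Fib-dZeb1, line 1 replicate 1 lay apart for Col14a1 (19.1 CPM, others 0.712 to 1.64), Col4a5 (294 CPM, others 122 to 141), Col10a1 (3.82 CPM, others 0.0734 to 0.544) and Col15a1 (11.6 CPM, others 0.991 to 2.42). Fib-dZeb1 line 1 replicate 2 lay apart for Col17a1 (0.335 CPM, others 0.477 to 0.501). Thus 6 of the 7 were the highest value of a genotype and came from line 1 replicate 1.

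The genotype contrast differed between line 1 and line 2 by edgeR's test of the difference (line 2 minus line 1, log2) for Col22a1 (4.30), Col6a2 (2.34), Col6a3 (1.24), Col8a2 (3.16) and Col18a1 (2.21). Same-numbered lines are not described as related, so each difference is one between 4 lines.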

How the results depend on the processing

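All 11 called collagen chain genes kept their direction in each of up to 23 alternatives that gave them a value. With at least 1 CPM in 4 libraries Col4a3, Col4a4, Col6a4 and Col17a1 were not tested and had 22. Of 709 pairs of a collagen chain gene and an alternative, 557 kept direction and side of the threshold, 93 lost a call, 29 gained one and 30, none of a called gene, changed sign. Against 9 lower and 2 higher collagen chain genes, 2 lines against 2 gave 0 and 0 by edgeR. At an unadjusted p under 0.05 they gave 9 and 2, against 7.99% and 6.47% of all genes. With limma-voom and a correlation within lines there were 1 and 0, against 1.13% and 0.879% of all genes. Unadjusted, it gave 8 and 3, against 10.7% and 9.32%. Leaving out 1 library gave 3 to 10 and 1 to 2, and for fits with libraries left out the shares of all genes are not given here. Writing C for Fib-Ctrl, K for Fib-dZeb1 and line.replicate behind it, the lower count was 3 without K2.2, 4 without C1.1, C2.1, K1.2 or K2.1, and 5 without C1.2. Of the higher pair, Col4a4 alone kept its call without C1.1, C1.2, C2.2, K1.2, K2.1 or K2.2. The higher count was 4 with DESeq2, 0 with at least 1 CPM in 4 libraries, and 1 with limma on log2(TPM + 0.5).

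Labels share replicate numbers. Whether these pair libraries was not settled, and most collagen chain genes were lower in replicate 2 in every line. The replicate block gave 8 lower and 2 higher collagen chain genes (8.07% and 7.10% of all genes) and 27 lower and 3 higher pathway genes. Line and replicate block gave 13 and 4 collagen chain genes (11.1% and 10.4% of all genes), and all 11 calls remained. In addition it called Col24a1 (adjusted p = 0.00397) and Col6a4 (0.0134) higher and Col11a1 (0.00976), Col14a1 (0.0298), Col15a1 (0.0171) and Col6a3 (0.0245) lower. Added after seeing the data, the replicate block with 4 line means gave 18 lower and 4 higher (22.5% and 22.4% of all genes), replicate number 1 alone 0 and 0 (8 and 2 of the 31 unadjusted), replicate number 2 alone 0 and 0 (11 and 2 unadjusted), and leaving out both Fib-dZeb1 line 1 libraries 8 and 2. That block gave 19 lower collagen chain genes in line 1 (2329 of all 12963 genes), 10 lower in line 2 (2522), and 8 above (1552) and 1 below (1562) for the difference of line contrasts.

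Pathway genes gave 0 lower and 0 higher with 2 lines against 2, 14 to 25 lower and 1 to 4 higher with 1 library left out (15 lower without C1.1 or K1.2, 14 without K2.2, and 4 higher without K1.1), and 4 higher with library size alone. With no filter 25 collagen chain genes were lower in line 1 (22 of the 31, and 2359 of all 21336), 12 lower and 9 higher in line 2 (2397 and 2403 of all), and the difference was above for 12 and below for 2 (1689 and 1573 of all). The log2 ratio of summed TPM (-1.15) ran from -1.34 to -0.97 with 1 library left out. Why counts changed was not tested.

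Signs changed for 6 uncalled genes. Leaving out 1 library gave log2 fold changes from -0.65 to 0.15 for Col7a1, from -0.59 to 0.27 for Col11a2, from -0.84 to 0.01 for Col8a2, from -0.03 to 0.54 for Col27a1, from -0.52 to 0.39 for Col4a6 and from -0.18 to 0.14 for Col8a1. Col7a1 was at 1.30 with the length offset and 1.43 with limma on TPM, where Col11a2 was at 0.11 and 0.12. Without both Fib-dZeb1 line 1 libraries Col11a2 was at 0.05, Col8a2 at 0.22 and Col8a1 at 0.02. Col4a6 was at -0.21 with line and replicate block, -0.13 with limma-voom, -0.50 with replicate number 1 alone and -0.26 with the block and 4 line means. Col8a1 was at 0.15 with library size alone, 0.00 with the replicate block, 0.01 with line and replicate block and with 4 line means, 0.02 with limma-voom, 0.18 with limma on TPM and 0.22 with replicate number 2 alone. Depth limits Col4a3, Col4a4, Col10a1 and Col17a1, which had under 20 reads in several libraries.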
